A study of Mus musculus with 13 samples.

Results

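The 10 genes described here are the ones by which fat cells are usually recognised, measured in whole mouse pancreas: Adipoq, Lep, Cfd and Retn, which encode secreted adipokines, Plin1 and Cidec, which encode proteins of the fat-cell lipid droplet, Lipe, Lpl and Fabp4, which handle fatty acids, and Pparg, the master transcription factor of fat-cell formation. They were chosen by name, each matched through its Entrez identifier to a row of the expression table, and all 10 were found among its 23366 genes. The pancreas is made mostly of acinar cells that secrete digestive enzymes, with ducts, islets, vessels and connective tissue between them, and fat cells lie in and around its lobules. Mature fat cells store triglyceride in a single large droplet coated by perilipin, release it through lipases, and secrete hormones such as adiponectin and leptin. Fabp4, Lpl, Lipe and Pparg are also made by other cells, among them endothelial cells, macrophages and muscle, whereas the other members are close to restricted to fat cells.

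The question of the study was whether 1 cycle of transient expression of the reprogramming factors Oct4, Sox2, Klf4 and cMyc (OSKM) moves the transcriptome of the aged pancreas towards that of the young. RNA-seq was made from the pancreas of 13 female mice, 1 library per mouse. The groups were 4 young mice of 13 weeks, 5 old mice of 55 weeks, and 4 old-OSKM mice that began doxycycline in the drinking water at 55 weeks, took it for 1 week and recovered for 2 weeks, the labels giving 58 weeks. All 3 groups are described by the study as reprogrammable mice of the line i4F-B, whose OSKM cassette answers to doxycycline, is ubiquitous by design and is broadly induced in acinar cells but not in every cell type of the pancreas. The young and old mice therefore share the cassette, and they received no doxycycline. It is inserted in Pparg, itself one of the 10 genes. The old-OSKM mice differ from old mice in doxycycline, in the induced factors and in their labelled age together. The water with doxycycline also held sucrose, which the study does not describe for the untreated mice. These differences cannot be told apart here. In whole tissue, fewer cells of a type and less RNA per cell cannot be told apart either.

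Values are log2 RPKM (reads per kilobase of transcript, scaled to library size, on a log2 scale), quantile-normalised by the authors, and the number of reads behind each library is unknown because only these values were used. The acinar gene Ctrb1, which encodes a chymotrypsinogen, held the highest value of the table in every mouse, as the tissue label would have it; the normalisation gives that rank the same value, 11.11 log2 RPKM, in all mice, so the level itself compares nothing. Old-OSKM mice 1 and 4 and young mouse 3 stood apart from the rest, with a standard deviation of their deviations from the group mean of 0.326, 0.381 and 0.364 log2 units over all genes against 0.242 to 0.279 in the other 10 mice. Identifier numbers of the samples, which are separate from the names in their titles, fell into 2 runs, 609 to 621 and 641 to 643. The later run held young mice 3 and 4, old mouse 5 and no old-OSKM mouse. Both facts bear on the fat-cell genes, and the values without those mice are given beside the results.

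The stretches of 250 bases upstream of the transcription start are shown for 4 members because C/EBP factors and Pparg act together in fat-cell formation and because Adipoq, Lep and Plin1 were highest in the same mice and Pparg was not. RefSeq sequence (build GRCm38.p6, the assembly of mm10) was matched for 8 of the 10 members with 12 starts; Fabp4 and Lpl are the members without an entry. Sequences run 5′ to 3′ on the gene's strand, and capitals mark 2 motifs searched on both strands, the C/EBP core TTGCNNAA and the CCAAT box, which do not overlap each other in the stretches shown. Adipoq is at chr16:23146286-23146535 (plus strand), Lep at chr6:29059971-29060220 (plus strand), Plin1 at chr7:79732777-79733026 (minus strand), and Pparg at chr6:115421816-115422065 (plus strand), the last being the start that lies farthest downstream in that gene and gives its fat-cell isoform.
Adipoq: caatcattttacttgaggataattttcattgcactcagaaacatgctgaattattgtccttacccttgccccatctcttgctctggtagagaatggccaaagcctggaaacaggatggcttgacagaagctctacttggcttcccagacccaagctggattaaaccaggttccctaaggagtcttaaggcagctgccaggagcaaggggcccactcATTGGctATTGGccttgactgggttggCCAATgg
Lep: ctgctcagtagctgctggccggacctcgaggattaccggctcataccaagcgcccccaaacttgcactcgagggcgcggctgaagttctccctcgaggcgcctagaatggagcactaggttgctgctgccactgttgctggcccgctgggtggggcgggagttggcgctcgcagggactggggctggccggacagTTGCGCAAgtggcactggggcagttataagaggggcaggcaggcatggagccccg
Plin1: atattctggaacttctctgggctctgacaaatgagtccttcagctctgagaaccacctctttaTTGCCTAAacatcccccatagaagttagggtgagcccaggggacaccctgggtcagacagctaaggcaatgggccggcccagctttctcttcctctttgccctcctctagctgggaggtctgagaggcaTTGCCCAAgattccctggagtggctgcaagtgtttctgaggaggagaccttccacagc
Pparg: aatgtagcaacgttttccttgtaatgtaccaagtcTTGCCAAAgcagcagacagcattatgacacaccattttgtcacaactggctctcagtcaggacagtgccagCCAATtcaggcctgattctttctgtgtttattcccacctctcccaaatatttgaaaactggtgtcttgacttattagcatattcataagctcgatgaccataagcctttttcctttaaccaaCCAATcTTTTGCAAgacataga

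The C/EBP core was found upstream of 4 of the 12 starts, and in 9.56% of the same stretch of all 32851 starts in the table. Its full palindrome, TTGCGCAA, which contains the core and reads the same on both strands, began 55 bases upstream of the Lep start and was present in 0.164% of all starts. CCAAT was found at 3 of the 12 starts, among them Adipoq with 3 matches, against 33.8% of all starts. Also searched on both strands were the nuclear receptor core AGGTCA, found upstream of 2 Pparg starts and in 14.0% of all starts, and TATAAA, found upstream of 1 Pparg start and in 12.4% of all starts. These matches describe letters in the sequence and carry no measurement of factor binding.

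The 6 genes that are close to restricted to fat cells, Adipoq, Lep, Cfd, Retn, Plin1 and Cidec, were near the bottom of their scale in most mice and far above it in a few. In each of these genes a flat lowest value recurred, shared to within 0.25 log2 units by 5 mice for Cidec and by as many as 9 mice for Lep; that width was chosen after the values were seen. All 6 genes were above their lowest value in old-OSKM mice 1 and 4 and in young mouse 4, and 4 of the 6 were in young mouse 3. In the other 9 mice the number above it was between 1 and 3 of 6. Summed over the 6 genes, RPKM was 7.53 in old-OSKM mouse 1, 2.52 in old-OSKM mouse 4, 1.93 in young mouse 3 and 1.44 in young mouse 4, and between 0.693 and 0.914 in the other mice. The 4 treated mice therefore split into 2 with the highest sums of all 13 mice and 2 whose sums, 0.914 and 0.789, were little above the highest old mouse (0.754). The range over the 13 mice was 2.96 to 4.44 log2 units for the 6 genes, each at or above the 98.6th percentile of all genes, whose median range was 0.707.

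**Figure D1:**
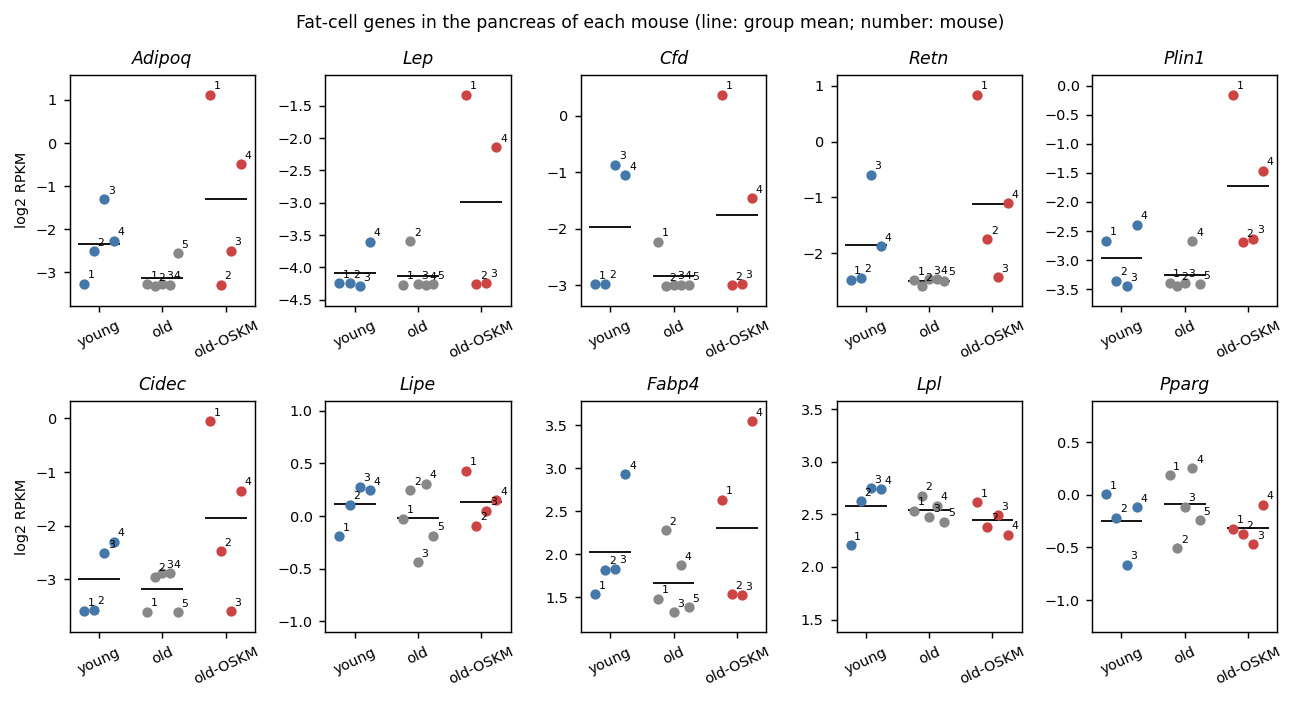
Level of each of the 10 genes in log2 RPKM (vertical axis, scaled separately in each panel and at least 2 log2 units high) by group, 1 point per mouse with its number and a line at the group mean. Old-OSKM mice 1 and 4 lie above old-OSKM mice 2 and 3 in the 6 restricted genes, from Adipoq to Cidec, and in Fabp4. They also do so in Lipe and Pparg, whose ranges over all mice are only 0.87 and 0.92 log2 units. In Lpl they do not.

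Adipoq (Entrez 11450, chr16:23146536-23157968, build GRCm38) encodes adiponectin, the most abundant fat-cell hormone, which raises insulin sensitivity. Its log2 RPKM was -3.26, -2.51, -1.31 and -2.26 in young mice 1 to 4, -3.28, -3.32, -3.27, -3.29 and -2.56 in old mice 1 to 5, and 1.12, -3.29, -2.50 and -0.49 in old-OSKM mice 1 to 4. Old-OSKM mice 1 and 4 were above every other mouse, old-OSKM mouse 2 was as low as the old mice, and the groups overlapped. Young mice averaged -2.34 ± 0.81 (SD, n = 4). Old mice averaged -3.14 ± 0.33 (SD, n = 5), and the old-OSKM mean of -1.29 ± 1.99 (SD, n = 4) had the widest spread.

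Lep (chr6:29060221-29073876) encodes leptin, the hormone that signals fat stores to the brain. Its log2 RPKM was -4.24, -4.24, -4.29 and -3.60 in young, -4.27, -3.60, -4.26, -4.27 and -4.26 in old, and -1.33, -4.26, -4.24 and -2.14 in old-OSKM mice. It was the lowest of the 10 genes, its mean over all mice lying at the 8.32nd percentile of all genes, and outside old-OSKM mice 1 and 4 no mouse was above -3.60 log2 RPKM. Cfd (chr10:79890853-79892655), which encodes adipsin, the complement factor D secreted by fat cells, had values of -2.98, -2.97, -0.87 and -1.05 in young, -2.22, -3.01, -2.98, -2.99 and -2.99 in old, and 0.37, -2.99, -2.97 and -1.46 in old-OSKM mice. Here young mice 3 and 4 stood above old-OSKM mouse 4, and only old-OSKM mouse 1 stood above both. Retn (chr8:3655770-3659818), which encodes resistin, had values of -2.47, -2.44, -0.59 and -1.88 in young, -2.48, -2.58, -2.47, -2.47 and -2.49 in old, and 0.84, -1.75, -2.42 and -1.11 in old-OSKM mice. All 5 old mice were flat for Retn, and the lowest old-OSKM mouse lay 0.04 log2 units above the highest old mouse, a margin smaller than the range of the old mice.

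Plin1 (chr7:79721164-79732904) encodes perilipin 1, the coat of the fat-cell lipid droplet that holds lipases back until they are needed. Its log2 RPKM was -2.67, -3.36, -3.45 and -2.39 in young, -3.39, -3.44, -3.39, -2.67 and -3.41 in old, and -0.15, -2.69, -2.63 and -1.46 in old-OSKM mice. All 4 old-OSKM mice were above 4 of the 5 old mice, and old mouse 4 lay within the range of old-OSKM mice 2 and 3. Cidec (chr6:113424634-113435760), whose protein fuses small droplets into the single large droplet of white fat, had values of -3.59, -3.57, -2.51 and -2.30 in young, -3.60, -2.95, -2.89, -2.89 and -3.61 in old, and -0.05, -2.47, -3.59 and -1.35 in old-OSKM mice. Old-OSKM mouse 1 was again the highest and old-OSKM mouse 4 the second, while old-OSKM mouse 3 was as low as the lowest old mice. Old-OSKM mouse 1 held the highest value of all 13 mice in each of the 6 restricted genes, which was so for 8.50% of all genes. It exceeded old-OSKM mouse 4 by 0.82 to 1.95 log2 units in these genes, and 4 of them had these mice first and second, an order found in 1.99% of all genes.

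The 4 members that other cells also make behaved differently. Fabp4 (chr3:10204342-10208616), a fatty acid carrier of fat cells, capillary endothelium and macrophages, was 1.53, 1.82, 1.83 and 2.93 in young, 1.48, 2.28, 1.32, 1.87 and 1.38 in old, and 2.64, 1.53, 1.52 and 3.55 log2 RPKM in old-OSKM mice. Its highest mice were old-OSKM mouse 4, young mouse 4 and old-OSKM mouse 1, an order that differs from that of the restricted genes. Of these mice, old-OSKM mouse 4 and young mouse 4 were also highest for the endothelial gene Pecam1, at 2.88 and 2.52. Pecam1 was 1.98 in old-OSKM mouse 1 and 1.60 to 2.04 in the other mice. The 7 macrophage genes summed to 27.1 RPKM in old-OSKM mouse 4, 17.0 in young mouse 4 and 27.5 in old-OSKM mouse 1. In the other mice that sum was 7.52 to 12.8 RPKM. The part of either cell type in the Fabp4 values was not tested. Lpl (chr8:68880555-68906932), which encodes lipoprotein lipase, the enzyme that frees fatty acids from circulating triglyceride, was the highest member on this per-length scale in 10 of the 13 mice and varied least. Its values ran from 2.21 to 2.75 in young, from 2.43 to 2.68 in old and from 2.31 to 2.61 log2 RPKM in old-OSKM mice.

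Lipe (chr7:25379527-25398486) encodes hormone-sensitive lipase, which cuts stored fat under the control of catecholamines and insulin. It was -0.19, 0.11, 0.28 and 0.25 in young, -0.03, 0.25, -0.44, 0.31 and -0.19 in old, and 0.43, -0.09, 0.05 and 0.15 log2 RPKM in old-OSKM mice. The highest mouse was old-OSKM mouse 1, yet it exceeded old mouse 4 by little and all groups overlapped. Pparg (chr6:115360879-115490404) was 0.00, -0.22, -0.67 and -0.12 in young, 0.19, -0.51, -0.11, 0.25 and -0.24 in old, and -0.32, -0.38, -0.47 and -0.09 log2 RPKM in old-OSKM mice. Neither old-OSKM mouse 1 nor mouse 4 was high for Pparg, and the range over all mice was 0.92 log2 units. The part of the cassette inserted in this gene in these values was not tested.

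Old-OSKM mice were compared with old mice to ask which genes a cycle of OSKM changed in the aged pancreas. One of the 10 genes, Plin1, was called higher by the definition of the study, a fold change over 1.5 with an unadjusted p under 0.01 in limma, and none was called lower. Over all genes this definition called 0.753% in either direction, 0.582% as higher and 0.171% as lower, and 0.00428% had an adjusted p under 0.05. Plin1 was 1.53 ± 0.47 log2 units higher (SE; 2.89-fold; unadjusted p = 0.0072), and its Benjamini-Hochberg adjusted p over all genes was 0.547. Adipoq differed by 1.85 ± 0.75 (SE; unadjusted p = 0.031), Retn by 1.39 ± 0.57 (unadjusted p = 0.033) and Cidec by 1.32 ± 0.59 (unadjusted p = 0.047), all with a limma adjusted p of 0.547 and none past the call. The differences were 1.14 for Lep, 1.08 for Cfd and 0.64 for Fabp4, and each 95% interval included 0, from -0.04 to 2.32 for Lep, from -0.44 to 2.60 for Cfd and from -0.30 to 1.59 for Fabp4. Lipe differed by 0.15 (95% interval -0.21 to 0.52), Lpl by -0.09 (-0.33 to 0.15) and Pparg by -0.23 (-0.60 to 0.15). An unadjusted p under 0.05 was reached by 4 of the 10 genes, against 8.07% of all genes. The median difference of the 10 genes was 1.11 log2 units, with 8 of them higher, against a median of -0.04 over all genes. Groups did not overlap for 1 of the 10 genes, Retn, and for 1.02% of all genes in this direction.

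**Figure D2:**
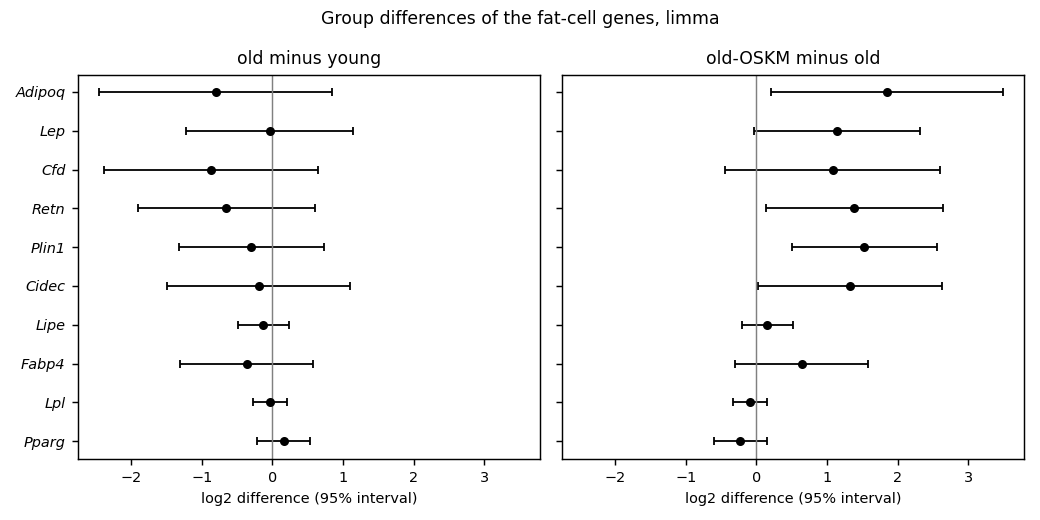
Differences between group means in log2 units (horizontal axis) for the 10 genes, with 95% intervals from limma as bars, old minus young on the left and old-OSKM minus old on the right; the vertical line marks 0. On the right the 6 restricted genes lie between 1.08 and 1.85 with wide intervals, while Lipe, Lpl and Pparg lie near 0; on the left every interval includes 0.

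These differences rested on old-OSKM mice 1 and 4. Without both, Plin1 differed from old mice by 0.60 log2 units (unadjusted p = 0.084 in limma), Retn by 0.41, Adipoq by 0.25 and Cidec by 0.16, and Lep, Cfd and Fabp4 turned slightly negative, at -0.12, -0.14 and -0.14. The median of the 10 genes moved from 1.11 to -0.05. The Plin1 call was lost without old-OSKM mouse 1 (1.00 log2 units, limma adjusted p = 0.769), without old-OSKM mouse 4 (1.44, limma adjusted p = 0.702), and without old mouse 1, 2, 3 or 5, where the difference was 1.48 or more and the limma adjusted p 0.555 to 0.748. Leaving out old-OSKM mouse 2 added Adipoq to the calls, and leaving out old-OSKM mouse 3 added Cidec and Retn. Over all genes, 136 were called higher and 40 lower with all mice, and 31 higher and 49 lower without both mice. That pair was chosen after the data were seen.

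**Figure D3:**
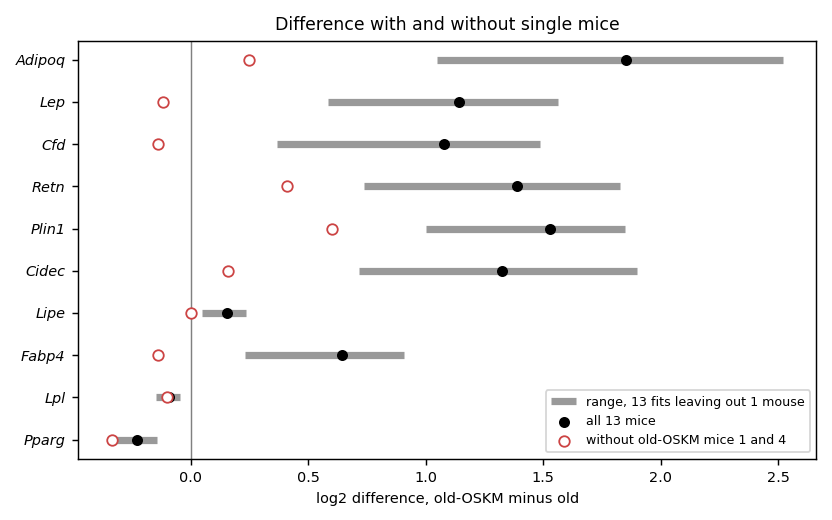
Difference between old-OSKM and old mice in log2 units (horizontal axis) for the 10 genes with all 13 mice (black), without old-OSKM mice 1 and 4 (open red), and as the range of the 13 fits that each leave out 1 mouse (grey bar). The open points of the 6 restricted genes and of Fabp4 lie between -0.14 and 0.60, all below their grey bars.

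Old mice were compared with young mice to ask how the genes differ with age. None of the 10 genes was called, against 0.886% of all genes (0.449% higher, 0.437% lower), none reached an unadjusted p under 0.05 (5.52% of all genes), and every limma adjusted p was 1.00, while 0.0813% of all genes had one under 0.05. The groups overlapped for all 10 genes; over all genes 1.5% did not overlap with old mice higher and 1.22% with old mice lower. The point estimates were lower in old mice for 9 of the 10 genes, with a median of -0.25 log2 units against 0.00 over all genes. Cfd had the largest, -0.87 ± 0.69 (SE), followed by Adipoq at -0.81 ± 0.75 and Retn at -0.65 ± 0.57. These 3 genes were high in young mice 3 and 4, both of the later identifier run. Among the mice with identifiers 609 to 621, which leaves young mice 1 and 2 and old mice 1 to 4, the differences were 0.17 for Cfd, -0.40 for Adipoq and -0.04 for Retn, and 7 of the 10 genes were higher in old mice, with a median of 0.06. The order of the 3 group means was thus old, young, old-OSKM from low to high for 8 of the 10 genes, but no neighbouring pair of means reached a limma adjusted p under 0.05. Old-OSKM mice compared with young mice gave no call among the 10 genes, against 0.625% of all genes (0.454% higher), and no adjusted p under 0.05, against 0.0428%. The groups overlapped for all 10 genes, and for all but 1.09% of all genes in the direction of higher old-OSKM values. Plin1 came closest, at 1.23 ± 0.49 log2 units (SE; unadjusted p = 0.029, limma adjusted p = 0.706), and was the only member with an unadjusted p under 0.05, which 5.07% of all genes had. The median difference was 0.51, and without old-OSKM mice 1 and 4 it was -0.16 with 1 of the 10 genes higher. Among the mice with identifiers 609 to 621, which leaves out young mice 3 and 4, the median moved the other way, to 1.23 with 9 of the 10 genes higher, and Adipoq moved from 1.05 to 1.60.

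Whether the members moved together across mice was asked through Adipoq, correlated with each of the other 9 members over the 13 mice. Retn was closest, with Pearson's r = 0.92 (permutation p = 5.6e-04, adjusted over the 9 pairs 0.0044) and Spearman's rho = 0.70 (permutation p = 0.0089, adjusted 0.04). Cfd followed, with r = 0.87 (permutation p = 9.7e-04, adjusted 0.0044) and rho = 0.83 (permutation p = 7.8e-04, adjusted 0.007). The r was 0.87 for Lep, 0.85 for Cidec, 0.80 for Plin1 and 0.64 for Fabp4, each with a permutation adjusted p under 0.05, but their rho of 0.37 to 0.50 did not pass the same adjustment. For Lipe r was 0.56, for Lpl 0.16 and for Pparg -0.29. The 2 mice farthest from the median of Adipoq were old-OSKM mice 1 and 4, and without them r was 0.75 for Retn and 0.74 for Cfd (permutation adjusted p = 0.078 for both), 0.23 for Cidec, -0.01 for Lep and -0.11 for Plin1. No pair passed the adjustment over these 11 mice. For Lep, Plin1 and Cidec the relation with Adipoq rests on those 2 mice. For Retn and Cfd part of r remained without them, with an unadjusted permutation p of 0.017 and 0.016. Young mouse 3 was the highest of these 11 mice for Adipoq, Retn and Cfd, at -1.31, -0.59 and -0.87 log2 RPKM. The r without young mouse 3 as well was not computed. After each group's mean was removed, Retn (r = 0.88) and Cfd (r = 0.87) passed, both with a permutation adjusted p of 0.035. That fit includes old-OSKM mice 1 and 4. Within groups and without them, r was 0.65 for Retn and 0.63 for Cfd (unadjusted permutation p = 0.18 and 0.19). In the 10 mice of the earlier identifier run r was 0.93 for Retn, 0.94 for Cfd and 0.95 for Lep. That run also includes old-OSKM mice 1 and 4, so these values do not show a relation apart from them. The later run has 3 mice, too few for a value.

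The wider fat-cell programme was followed through 81 further genes of 7 lists. In old-OSKM compared with old mice 2 of the 81 were called higher, Aqp7 and Itih5, and none lower, with a median difference of 0.05 log2 units; 13 had an unadjusted p under 0.05. Over all genes 0.582% were called higher and 8.07% had such a p. In old compared with young mice 1 was called lower, Cdh13, and none higher, with a median of -0.00, and 11 had an unadjusted p under 0.05, against 0.437% of all genes called lower and 5.52% with such a p. Old-OSKM compared with young mice gave no call, and 5 genes had an unadjusted p under 0.05, a share near the 5.07% of all genes. No gene of the 81 passed a limma adjusted p of 0.05 in any of these comparisons.

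In the list of lipid droplet and lipolysis genes 1 of 16 was called in old-OSKM compared with old mice, Aqp7, the channel through which fat cells release glycerol. Its level was -3.42, -2.89, -3.28 and -2.58 log2 RPKM in old-OSKM mice against -4.02 to -3.32 in old mice, a difference of 0.69 ± 0.22 (SE; limma unadjusted p = 0.0096, adjusted p = 0.547), and old-OSKM mouse 1 was its lowest treated mouse. G0s2, an inhibitor of the lipase ATGL, differed by 0.60 without a call, with the highest value, 1.05, in old-OSKM mouse 4. Plin4, a droplet coat protein of white fat, was 1.21 ± 0.47 (SE) higher in old than in young mice with an unadjusted p of 0.026 (limma), without a call, and its highest mouse was old-OSKM mouse 4, at 0.88. None of 17 genes of triglyceride assembly and lipogenesis was called or had an unadjusted p under 0.05 in any comparison. Lpin1, a phosphatidate phosphatase, differed by -0.12 and Mlxipl, the carbohydrate-sensing factor ChREBP, by -0.41 in old-OSKM compared with old mice. Dgat1, which adds the last acyl chain of triglyceride, differed by 0.31 between old and young mice.

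None of 14 fat-cell transcription factors was called. Ppargc1a, the coactivator of mitochondrial biogenesis, differed by -0.34 and Ppara, the driver of fatty acid oxidation, by -0.25 between old-OSKM and old mice, while Nrip1 was 0.18 higher and Ebf2 0.52 lower in old than in young mice, all short of a call. Of 11 genes of fatty acid and glucose uptake none was called. Cd36, the fatty acid translocase, was 2.27 and 2.46 log2 RPKM in old-OSKM mice 1 and 4, 2.17 in young mouse 4 and 0.92 to 1.51 in the other mice, and it was 0.64 ± 0.28 log2 units (SE; limma unadjusted p = 0.045) higher in old-OSKM than in old mice, short of a call. Vldlr, the receptor for triglyceride-rich lipoproteins, differed by 0.28 ± 0.07 (SE) between old and young mice, under the fold of the call, and Insr, the insulin receptor, by 0.12.

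Among 11 further adipokines and their receptors, Itih5, an inter-alpha-trypsin inhibitor heavy chain abundant in fat, was 1.19, 0.86, 0.70 and 1.64 log2 RPKM in old-OSKM mice against 0.16 to 0.52 in old mice. These groups did not overlap, and the difference was 0.73 ± 0.22 (SE; limma unadjusted p = 0.0057, adjusted p = 0.547). Cdh13, which encodes the adiponectin-binding T-cadherin and is made by vessels and muscle, was -0.84 ± 0.27 log2 units in old compared with young mice (SE; limma unadjusted p = 0.0098, adjusted p = 0.614). Between old-OSKM and old mice Cdh13 differed by -0.01. Rarres2, the chemerin gene, differed by 0.67 between old-OSKM and old and by -0.68 between old and young mice, and Apln, the apelin gene, by -0.52 between old and young mice, none of them called.

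The brown fat gene Ucp1, the uncoupling protein, was flat between -3.74 and -3.53 log2 RPKM in all 13 mice, old-OSKM mice 1 and 4 included. None of 7 genes of brown and beige fat was called; Elovl3 and Dio2 had unadjusted p of 0.15 and 0.17 between old and young mice (limma). Among 7 genes of fat-cell precursors none was called, and 6 of 7 had higher means in old-OSKM than in old mice, with a median of 0.51 log2 units. Ly6a, a stem cell antigen that endothelium and lymphocytes carry too, was 3.40 and 3.27 log2 RPKM in old-OSKM mice 1 and 4 and at most 2.85 in the others. Cd34 differed by 0.68 and Pi16, a marker of adventitial fibroblasts, by 0.65 between old-OSKM and old mice, and Dlk1, the preadipocyte factor, by -0.51 between old and young mice.

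Markers of some other cell types were high in the same mice. The 7 macrophage genes summed to 27.5 RPKM in old-OSKM mouse 1 and 27.1 in old-OSKM mouse 4, against 11.5 and 11.6 in the other old-OSKM mice, 7.52 to 12.8 in old and 10.2 to 17.0 in young mice. The 10 lymph node B and T cell genes were highest in old-OSKM mouse 1, at 17.0 RPKM, against 7.43 in old-OSKM mouse 4 and at most 8.64 in the old and 3.30 in the young mice. Of these 10 genes 4 were called higher in old-OSKM than in young mice (Cd3g, Cd79b, Jchain and Ms4a1), against 0.454% of all genes, 1 in old than in young mice (Jchain), against 0.449%, and none in old-OSKM than in old mice. Fibroblast and stellate genes (7) summed to 72.8 RPKM in old-OSKM mouse 4, 53.8 in young mouse 4 and 40.9 in old-OSKM mouse 1, against 20.1 to 25.99 in old mice, and the collagen genes Col1a1 and Col1a2 of this list were called higher in old-OSKM than in old mice, against 0.582% of all genes. Col1a1 and Col3a1 were called lower in old than in young mice, against 0.437% of all genes. Endothelial genes (7) summed to 24.6 RPKM in old-OSKM mouse 4 and 21.0 in young mouse 4, but to 13.4 in old-OSKM mouse 1, within 10.7 to 14.2 in the other mice. Duct genes (7) summed to 49.5 RPKM in old-OSKM mouse 4 and 47.3 in young mouse 4, against 40.5 in old-OSKM mouse 1 and 34.3 to 41.2 in the others. Erythroid and blood genes (5) summed to 70.2 RPKM in old-OSKM mouse 4, 53.9 in young mouse 4 and 53.1 in young mouse 3. Their sum was 38.9 in old-OSKM mouse 1 and 29.1 to 43.0 in the others. Islet genes (8) were lowest in old-OSKM mouse 1, at 80.1 RPKM, and highest in old-OSKM mouse 4, at 506.7. For 5 of 6 mesothelial genes found in the table the sum was 5.58 RPKM in old-OSKM mouse 4, 4.72 in young mouse 4 and 3.33 in old-OSKM mouse 1, against 0.895 to 3.07 in old mice, but it was also 3.28 in old-OSKM mouse 3, which was low for the fat-cell genes. Old-OSKM mice 1 and 4, both high in fat-cell and macrophage genes, were thus at opposite ends for islet genes. The part of any of these cell types in the fat-cell values was not tested.

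**Figure D4:**
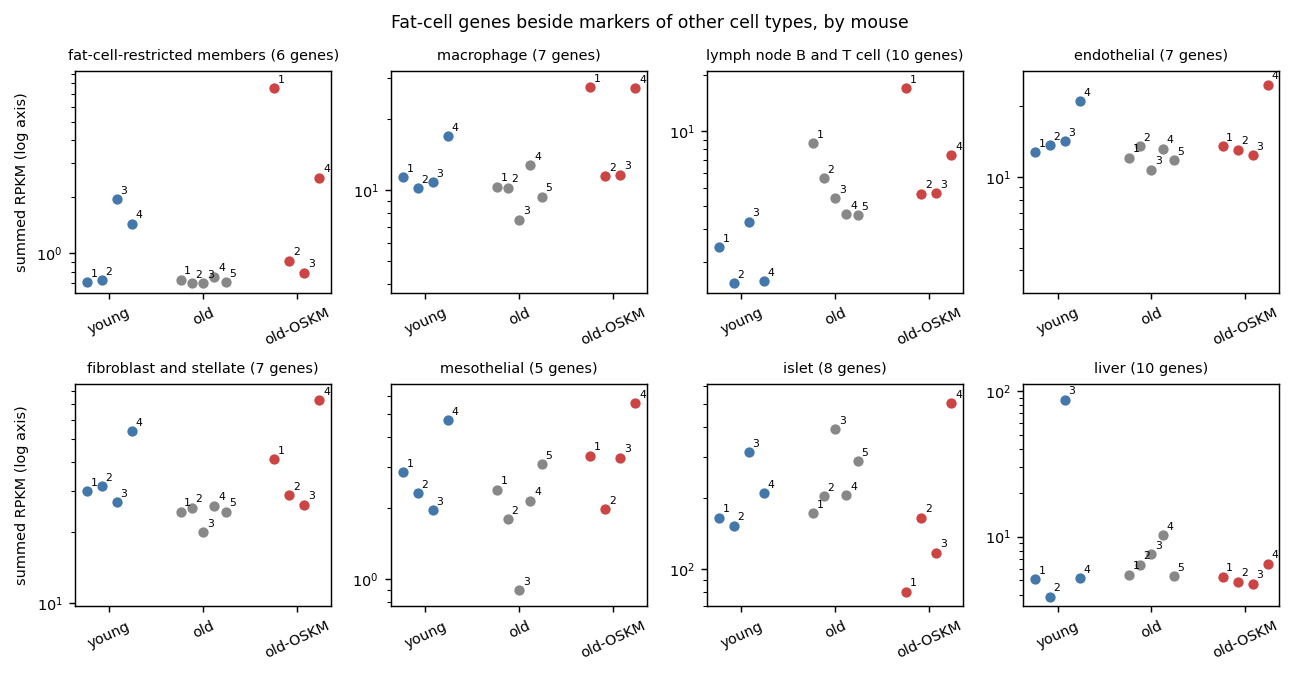
Summed RPKM (vertical axis, logarithmic and scaled separately in each panel) of the 6 restricted fat-cell genes and of 7 marker lists of other cell types, 1 point per mouse with its number, by group. Old-OSKM mice 1 and 4 are highest for fat-cell and macrophage genes, at 7.53 and 2.52 and at 27.5 and 27.1, and young mouse 3 stands out for the liver genes, at 86.8.

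Among genes outside the list with a mean above 0 log2 RPKM, the pattern over the 13 mice most like the mean of the 10 members belonged to Srgn (r = 0.97), Sirpa (0.95), H2-K1 (0.94), H2-D1 (0.93), Rap1b (0.93), Msn (0.93), Cd44 (0.93), Psap (0.93), Rab8b (0.92) and Cdon (0.92). Srgn encodes the proteoglycan serglycin of blood-cell granules, Sirpa a receptor of myeloid cells, and H2-K1 and H2-D1 the heavy chains of MHC class I. The lowest r belonged to Six5 (-0.90), Tab3 (-0.90), Macrod1 (-0.88), Prrg2 (-0.88) and Gm15915 (-0.87). The cut at 0 leaves out genes as low as the 6 restricted members, whose own averages over the 13 mice ran from -3.77 to -1.87 log2 RPKM. These correlations describe likeness across mice of 3 groups, with old-OSKM mouse 1 at the extreme of the members' mean. For the members themselves r with that mean, of which each is a part, ran from 0.89 to 0.95 in the 6 restricted genes and was 0.76 for Fabp4, 0.64 for Lipe, 0.19 for Lpl and -0.15 for Pparg.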

How the data were processed

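RNA was taken from whole pancreas of 13 mice, depleted of ribosomal RNA and sequenced in pairs. Per the methods and labels, the authors aligned reads with STAR (version 2.3.0e) to mm10, estimated isoform RPKM with Casper, left out reads with many mapping positions, summed RPKM per Entrez gene and quantile-normalised the result; the deposited values are log2 RPKM for 23366 genes, 1 column per mouse. The authors also corrected for total reads, which these values do not show: the sorted values of any 2 mice differed by at most 0.0116. The study states a single read number for all samples, so the depth of each mouse is unknown and no counting error is given.

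From these values limma (version 3.58.1, R 4.3.3) fitted all genes and all 13 mice in 1 model with group as the term, two-sided; a gene was called at a fold over 1.5 and an unadjusted p under 0.01, as in the study, with Benjamini-Hochberg adjustment over all genes as the stricter reading. No pseudocount or filter was applied. Correlations used 100000 permutations, two-sided. The code was tested on simulated data. The members, lists and tests were chosen with earlier results of these data known. All 10 members are named; from each list, the genes called in any comparison and those with the 2 smallest p in old versus young and in old-OSKM versus old. Members were split into 6 restricted and 4 shared genes with their values known. The list of liver genes was chosen after seeing the data. Mouse numbers follow the order of the records and pair no mice. Alternatives were other scalings, pseudocounts, filters, fits and each mouse left out. Gene positions are on GRCm38, and sequences are RefSeq's.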

Additional observations from a re-analysis of the deposited data

Results flagged for a closer look

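Of 30 group values (10 genes in 3 groups), 6 held 1 mouse far from the others of its group. The measure was the gap to its nearest neighbour as a share of the group's range. For normally distributed values, chance alone marks about 1 in 20 such groups. Values gathered at the lowest level of a gene do not meet that condition, so the 6 cannot be read as an excess. In old mice these were Adipoq at -2.56 log2 RPKM in old mouse 5, Lep at -3.60 in old mouse 2, Plin1 at -2.67 in old mouse 4, Cfd at -2.22 in old mouse 1 and Retn at -2.58 in old mouse 2. In young mice it was Lep at -3.60 in young mouse 4. The other mice of each group were within a narrow band at the lowest value of the gene, and for Retn the gap to the nearest mouse was under 0.1 log2 units, with the marked mouse lower than the rest. The old mice were thus marked for 5 different genes in 4 different mice. No old-OSKM value was marked, where mice 1 and 4 were both high.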

How the results depend on the processing

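No paired analysis was possible because each mouse gave 1 library and belongs to 1 group only. Depth per mouse is unknown. The 6 restricted genes lie near their lowest values in most mice, where a log2 difference depends on how the lowest values are scaled. With a filter on a mean log2 RPKM over 0, a filter over -1, a pseudocount of 0.1 and a pseudocount of 1, in that order, the number of genes called went from 207 to 44, 78, 116 and 16 in old versus young, from 176 to 35, 62, 77 and 2 in old-OSKM versus old, and from 146 to 19, 40, 76 and 8 in old-OSKM versus young; the filters test fewer genes. With 1 mouse left out these counts ranged from 175 to 280, from 94 to 338 and from 121 to 253, the lowest in old-OSKM versus old being without old-OSKM mouse 1 (94) and the highest without old-OSKM mouse 2 (338), with 284 without old-OSKM mouse 3; old-OSKM versus young reached 253 without old-OSKM mouse 2. Without both old-OSKM mice 1 and 4, 80 genes were called in old-OSKM versus old.

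Of the 10 members, 1 was called in old-OSKM versus old, and 0 under both filters (which remove Plin1 from the test), both pseudocounts, a fit of these groups alone, the identifier run as a covariate, identifiers 609 to 621 alone, and without both mice; with 1 mouse left out it was 0 to 3, and 0 to 1 in old-OSKM versus young (Plin1 without old-OSKM mouse 2, Cidec without mouse 3). Plin1 kept its direction in all 22 alternatives and its call in 10, with values from 0.30 to 1.85, p from 0.0027 to 0.084 and limma adjusted p from 0.179 to 0.980. The mean log2 RPKM of the 10 members was 0.88 higher in old-OSKM than in old mice, and 0.47 to 1.16 higher when 1 mouse was left out. The number of members correlated with Adipoq ranged from 0 to 7 when 1 mouse was left out, against 6 with all mice; it was 0 without old-OSKM mouse 1 and 2 without old-OSKM mouse 4.

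Directions turned as follows, in log2 units. In old versus young with identifiers 609 to 621 alone: Lep 0.14, Cidec 0.50, Fabp4 0.061, Cfd 0.17, Lipe 0.065 and Lpl 0.15. In old-OSKM versus old without both mice: Lep -0.12, Fabp4 -0.14, Cfd -0.14 and Lipe -0.00017. In old-OSKM versus young without both mice: Adipoq -0.56, Lep -0.15, Cidec -0.039, Fabp4 -0.50, Cfd -1.01, Retn -0.24 and Lipe -0.13, and with identifiers 609 to 621 alone Lpl 0.033. With 1 mouse left out, old versus young ranged from -0.17 to 0.13 for Lep, -0.39 to 0.036 for Cidec and -0.16 to 0.016 for Lpl, and old-OSKM versus young from -0.13 to 0.58 for Fabp4, -0.51 to 0.62 for Cfd, -0.076 to 0.10 for Lipe and -0.20 to 0.019 for Pparg; all 10 members kept their direction in old-OSKM versus old. Repeated quantile normalisation, centring on the median, and a trended robust fit changed no call of a member. The cause of these changes was not tested.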

Other observations

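Cox8b, a muscle and brown fat form of a cytochrome c oxidase subunit, was high in the other pair of treated mice: 0.34 and -0.38 log2 RPKM in old-OSKM mice 2 and 3, against -1.38 and -1.93 in mice 1 and 4, -2.14 to -1.23 in old and -2.15 to -1.92 in young mice. Cox8b differed by 1.02 ± 0.38 (SE) between old-OSKM and old mice without a call (limma unadjusted p = 0.020). The 4 skeletal muscle genes summed to 0.566 to 0.790 RPKM in old-OSKM and 0.645 to 0.796 in old mice. In this comparison 1 of the 4 was higher, Acta1 by 0.54, and 3 were lower, Ckm by 0.64, none of them called. Acta1 was -1.98 and -2.29 log2 RPKM in old-OSKM mice 1 and 4 and -3.24 to -3.16 in the other mice.

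Young mouse 3, with the third highest sum of the restricted fat-cell genes, also had 10 liver genes at 86.8 RPKM, against 3.88 to 10.2 in the other 12 mice. Pck1, Agt and Rbp4, which both fat cells and liver make, were highest there, at 0.49, 0.55 and 1.94 log2 RPKM. The 2 other mice with Pck1 above -2 log2 RPKM were old-OSKM mouse 1, at -1.69, and old mouse 4, at -1.72. How much of the liver genes' level bears on the fat-cell genes of young mouse 3 was not tested.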
